A study of Mus musculus with 12 samples.

Results

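The 10 amino acid transporter genes described here are Slc7a11, Slc3a2, Slc7a5, Slc7a1, Slc7a3, Slc1a4, Slc1a5, Slc38a1, Slc38a2 and Slc6a9. They were taken by gene symbol, with 1 probe set per gene (the one with the highest mean log2 intensity over all arrays), and are 10 of the 18820 genes that the platform annotation names with a single symbol. Slc7a11 was chosen by its measured intensity difference between the vectors on these same arrays, and the other members are transporters of related function. The Slc7a11 vector difference is therefore given as a description, without a test.

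The cells were EML1, mouse haematopoietic progenitors grown as a line. All groups carry the retroviral vector LRARalpha403SN, with which the line was derived from male BDF1 mice (bone marrow). They had received TEL-AML1, a leukaemia fusion that joins TEL (ETV6) to AML1 (RUNX1), in the lentiviral vector pWPI, or the empty pWPI vector. RNA was hybridised to 12 Affymetrix arrays, 2 in each of 6 groups: TEL-AML1 and empty vector cells that were untreated, and both kinds of cell after 5 and after 7 days with IL7 (10 ng/ml) and FLT3L (80 ng/ml). Per the labels' protocols, the treated cells lay on OP9 stroma (a mouse bone marrow stromal line) in another medium and serum with β-mercaptoethanol, whereas the growth medium of EML1 cells held horse serum and conditioned medium. Cytokines, stroma, medium, serum and β-mercaptoethanol therefore cannot be told apart in any comparison of treated with untreated cells. The labels number the replicates but do not say that they were separate cultures, so p-values cover only array-to-array spread, which may be technical. The level of the fusion transcript was not analysed here.

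Slc7a11 encodes xCT, the light chain of the exchanger that imports cystine in return for glutamate, and Slc3a2 encodes CD98, the heavy chain that carries it to the membrane. Cystine is reduced to cysteine inside the cell and used for glutathione, and the genes of this exchanger and of several other amino acid transporters are known targets of ATF4, the factor of the amino acid response, while NRF2, the factor of the oxidant response, also induces Slc7a11. CD98 also pairs with the product of Slc7a5 (LAT1, a carrier of large neutral amino acids). Slc7a1 and Slc7a3 encode cationic amino acid carriers, Slc1a4 and Slc1a5 neutral amino acid exchangers, Slc38a1 and Slc38a2 sodium-coupled glutamine and alanine carriers, and Slc6a9 the glycine carrier GLYT1.

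Array medians lay between 68.1 and 72.9 intensity units. The progenitor marker Kit read between 2186 and 2744 on all arrays. Other progenitor markers moved. Gata2 means were 1322 in TEL-AML1 and 919 in empty vector cells untreated, and 1736 and 1138 on day 7. Of 10 such markers tested, 3 were lower and 0 higher in empty vector cells on day 5 (all genes 7.15% and 8.37%). Between the vectors 1, 1 and 2 were higher in TEL-AML1 cells untreated, on day 5 and on day 7 (all genes 2.72%, 3.01% and 5.24%), and 0 were lower. Flt3, the receptor of FLT3L, read 45.3 to 55.9, under the filter level of 59.9 that a gene's mean had to pass to be tested. Il7r, a chain of the IL7 receptor, read 51.7 to 159, and 1 array, the first of TEL-AML1 day 7, held the highest value. The summed intensity of 33 stromal genes (collagens, Sparc, Bgn and the like) was 3466 and 3258 in untreated TEL-AML1 cells, 11468 and 5264 on day 5 and 3468 and 6118 on day 7. For empty vector cells the same sum was 3010 and 2948 untreated, 14101 and 10894 on day 5 and 3786 and 8657 on day 7. Stromal transcript was thus high on the day 5 arrays and on the second array of each day 7 group, and near the untreated level on the first array of each day 7 group. Of 28 stromal genes tested, 25 rose in empty vector cells on day 5 and 2 on day 7, and 0 passed in TEL-AML1 cells on either day by limma, where 24 on day 5 and 2 on day 7 were higher at an unadjusted p under 0.05. Over all genes 8.37% and 6.29% rose in empty vector cells on days 5 and 7, and 1.17% and 4.74% in TEL-AML1 cells.

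**Figure D1:**
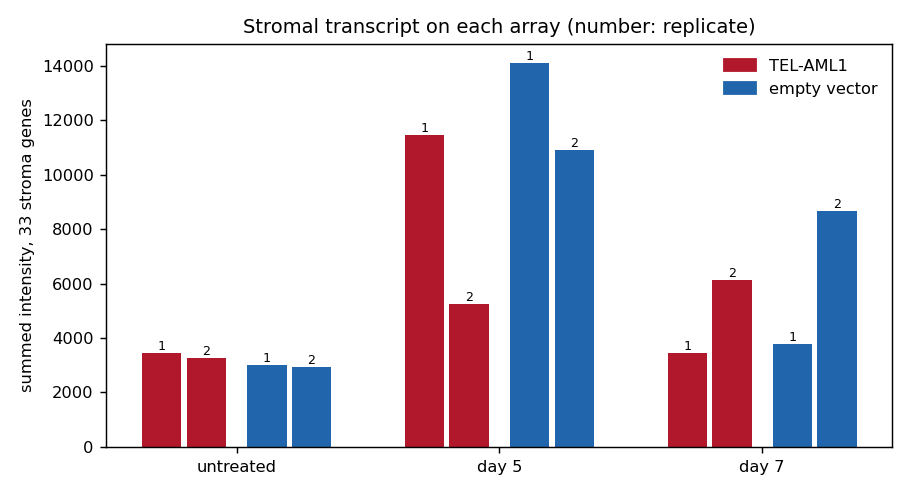
Summed intensity of 33 stromal genes on each array, with TEL-AML1 (red) left of empty vector (blue) at each condition and the replicate number above each bar. The sum reached 14101 on an empty vector day 5 array and stayed at 3468 and 3786 on the first array of each day 7 group.

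Of the 10 members, 9 passed the filter on dim genes. Slc7a3, the cationic carrier found mainly in brain, read 45.7 to 55.2 on all 12 arrays and was not tested. Differences below are on the scale log2(intensity + 16), with standard errors from 1 limma fit over 12345 genes and 6 groups, and a gene was called at a Benjamini-Hochberg adjusted p under 0.05 within its contrast. Intensities of different probe sets share no scale, so levels are compared only within a gene.

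The cystine exchanger light chain gene Slc7a11 was lower in TEL-AML1 cells than in empty vector cells under every condition. In TEL-AML1 cells its intensity was 152 and 162 untreated, 72.4 and 68.6 on day 5 and 59.2 and 55.9 on day 7. The empty vector arrays read 412 and 443 untreated, 224 and 425 on day 5 and 322 and 301 on day 7. All 6 TEL-AML1 arrays were below all 6 empty vector arrays, and the day 7 mean in TEL-AML1 cells (57.5 ± 2.31, SD, n = 2) was under the filter level. The difference, TEL-AML1 minus empty vector, was -1.36 ± 0.21 untreated, -1.91 ± 0.21 on day 5 and -2.15 ± 0.21 on day 7 (SE). As ratios on that scale Slc7a11 was 2.57-fold lower in TEL-AML1 cells untreated and 3.76-fold lower on day 5. No ratio is given for day 7, where the TEL-AML1 level is under the filter level and the difference moved from -2.42 with a pseudocount of 1 to -1.63 with a pseudocount of 64. Over 26 alternatives the 3 differences ran from -1.44 to -1.15, from -2.38 to -1.47 and from -2.42 to -1.63.

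The 6 group means of Slc7a11 ran, from high to low, through empty vector untreated (428 ± 22.1), day 5 (324 ± 142) and day 7 (311 ± 14.9), then TEL-AML1 untreated (157 ± 6.91), day 5 (70.5 ± 2.64) and day 7 (57.5 ± 2.31, SD, n = 2 each). The 2 empty vector day 5 arrays lay apart, one (425) within the range of the untreated arrays and the other (224) below both day 7 arrays, so neighbouring empty vector groups overlapped, and the arrays of the 3 TEL-AML1 groups did not overlap. From empty vector day 7 downward, neighbouring means differed by more than the sum of their SDs.

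**Figure D2:**
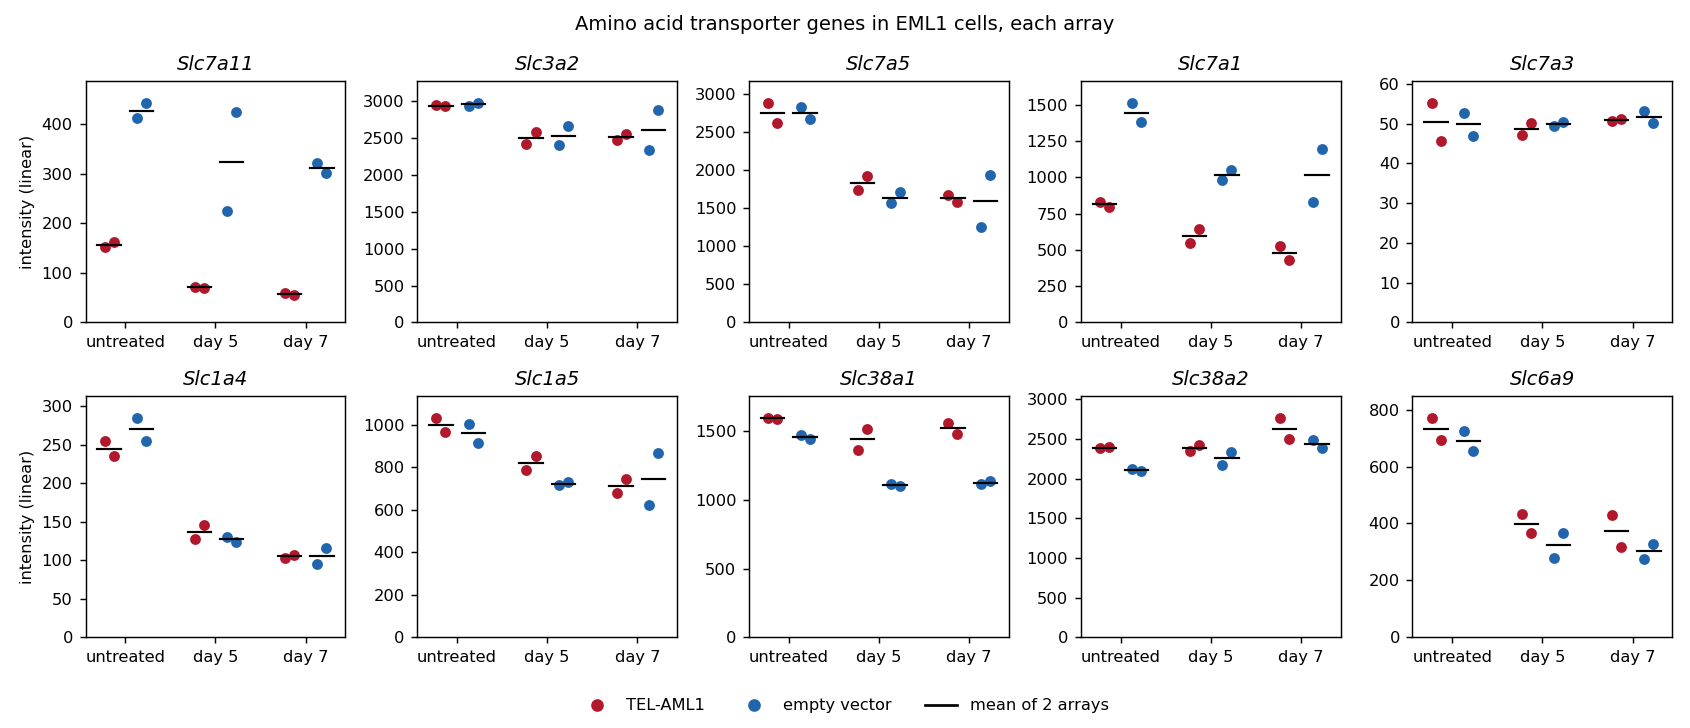
Intensity (linear axis from 0) of the 10 transporter genes on every array, with TEL-AML1 (red) left of empty vector (blue) in untreated, day 5 and day 7 cells and a black line at the mean of 2 arrays. Slc7a11 and Slc7a1 read lower in TEL-AML1 cells at each condition, and Slc1a4 and Slc6a9 read lower in treated than in untreated cells of both vectors.

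Between treated and untreated cells, the Slc7a11 difference in TEL-AML1 cells was -0.999 ± 0.21 on day 5 and -1.23 ± 0.21 on day 7 (SE). The empty vector differences were -0.45 ± 0.21 on day 5 and -0.44 ± 0.21 on day 7. All of these arrays also enter the vector difference that chose the gene, so the responses of Slc7a11 are descriptions too, with no test. Leaving out 1 array at a time, the TEL-AML1 differences ran from -1.04 to -0.96 on day 5 and from -1.28 to -1.19 on day 7, and the empty vector day 7 difference from -0.49 to -0.39. The empty vector day 5 difference was -0.89 without the second day 5 array and -0.01 without the first. The TEL-AML1 response minus the empty vector response was -0.55 ± 0.29 on day 5 and -0.80 ± 0.29 on day 7.

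RefSeq promoter windows on GRCm38.p6, each 300 bases from 250 before to 50 after a start, were found for 6 of the 10 members, in 9 windows. They were searched on both strands for the amino acid response element core (TGATGCAA), which ATF4 complexes bind, for the antioxidant response core (TGACNNNGC), which NRF2 complexes bind, and for the RUNX core (TGTGGT or TGCGGT), the sequence read by the AML1 moiety of the fusion. The windows of Slc7a11 and Slc1a4 are shown because they held the amino acid response letters. Capitals mark the matches, and each is written 5′ to 3′ on the gene's strand, for Slc7a11 at chr3:50443564-50443863 (minus strand) and for Slc1a4 at chr11:20332664-20332963 (minus strand).
Slc7a11: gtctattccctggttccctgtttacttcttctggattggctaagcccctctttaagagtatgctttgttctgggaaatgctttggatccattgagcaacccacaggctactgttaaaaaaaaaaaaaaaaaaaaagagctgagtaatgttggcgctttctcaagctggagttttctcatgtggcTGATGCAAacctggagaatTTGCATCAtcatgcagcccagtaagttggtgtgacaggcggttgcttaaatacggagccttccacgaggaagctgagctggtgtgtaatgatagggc
Slc1a4: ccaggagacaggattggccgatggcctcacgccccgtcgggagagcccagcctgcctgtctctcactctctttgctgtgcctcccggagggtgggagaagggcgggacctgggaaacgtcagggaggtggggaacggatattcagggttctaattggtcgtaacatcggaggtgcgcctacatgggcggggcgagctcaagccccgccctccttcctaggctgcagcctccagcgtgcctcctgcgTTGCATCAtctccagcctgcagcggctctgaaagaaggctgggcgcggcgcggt

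The Slc7a11 window held 2 matches that do not overlap, one reading TGATGCAA from base -66 and one reading TTGCATCA (the other strand) from base -47, counted from the start. The Slc1a4 window held 1, reading TTGCATCA from base -4. Among all 32851 promoter windows of the table, 294 (0.895%) held this core. The antioxidant core was in windows of Slc7a1, Slc38a2 and Slc6a9 and in 12.4% of all windows, and the RUNX core in windows of Slc3a2 and Slc6a9 and in 22.4% of all windows. Neither of these 2 sets of letters was in the Slc7a11 window, which says nothing of sites elsewhere.

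Among the other 8 members tested, 1 was called between the vectors in untreated cells, 2 on day 5 and 2 on day 7. All of these calls were the arginine and lysine carrier gene Slc7a1 or the glutamine carrier gene Slc38a1. Over all 12345 genes, 8.88% were called in untreated cells (2.72% higher), 7.28% on day 5 (3.01% higher) and 11.3% on day 7 (5.24% higher), so 1 or 2 calls among 8 members are not read as a result about the group. Slc3a2, Slc7a5, Slc1a4, Slc1a5, Slc38a2 and Slc6a9 were not called between the vectors under any condition.

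Slc7a1 encodes CAT1, the main carrier of arginine and lysine in many cells. In TEL-AML1 cells Slc7a1 read 830 and 798 untreated, 548 and 642 on day 5 and 528 and 432 on day 7. Empty vector arrays read 1512 and 1379 untreated, 982 and 1048 on day 5 and 830 and 1198 on day 7. The TEL-AML1 arrays were below the empty vector arrays of the same condition in all 3 comparisons.

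Slc7a1 was lower in TEL-AML1 cells by a log2 difference of -0.82 ± 0.16 untreated (limma adjusted p = 0.00844), -0.76 ± 0.16 on day 5 (limma adjusted p = 0.016) and -1.04 ± 0.16 on day 7 (limma adjusted p = 0.00217). The untreated call ended without the first untreated empty vector array (limma adjusted p = 0.086) and without the first (0.0542) or second (0.0757) untreated TEL-AML1 array. The day 5 call ended without the first (limma adjusted p = 0.0505) or second (0.103) empty vector day 5 array and without the first TEL-AML1 day 5 array (0.0972). The day 7 call held without any 1 array, at limma adjusted p up to 0.0217, and ended only in a fit to the compared groups alone (0.063).

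Slc7a1 lies on chromosome 5, and genes beside it were also lower in TEL-AML1 cells. Of its 20 nearest tested genes, 10 on each side in the RefSeq order, 15 were lower and 1 was higher in TEL-AML1 cells when untreated, with a median difference of -0.62. On day 5, 11 were lower and 0 higher (median -0.49), and on day 7, 11 were lower and 1 higher (median -0.46). In each condition 3 of the 20 had a lower difference than Slc7a1. Over all genes 6.16% were called lower in untreated cells, 4.27% on day 5 and 6.01% on day 7. The order of neighbours comes from GRCm38.p6 and was not taken from the array files.

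Slc38a1 encodes SNAT1, a sodium-coupled carrier of glutamine and other small neutral amino acids. In TEL-AML1 cells Slc38a1 read 1598 and 1589 untreated, 1366 and 1515 on day 5 and 1561 and 1483 on day 7. Its empty vector values were 1472 and 1445 untreated, 1113 and 1098 on day 5 and 1115 and 1137 on day 7. The TEL-AML1 arrays were above the empty vector arrays of the same condition in each comparison.

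Slc38a1 was higher in TEL-AML1 cells by 0.38 ± 0.07 on day 5 (limma adjusted p = 0.011) and 0.43 ± 0.07 on day 7 (limma adjusted p = 0.004), and the untreated difference of 0.13 ± 0.07 was not called (limma adjusted p = 0.426). The day 5 call ended without the second empty vector day 5 array (limma adjusted p = 0.0601) or the second TEL-AML1 day 5 array (0.0909). In a fit to the compared groups alone both calls ended, at limma adjusted p of 0.13 on day 5 and 0.0745 on day 7. A second, dimmer Slc38a1 probe set differed between the vectors in the same direction, by 0.45 untreated, 0.33 on day 5 and 0.62 on day 7, and was not tested on its own. With the mean of all probe sets the untreated difference was 0.29 and was called (limma adjusted p = 0.0479).

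**Figure D3:**
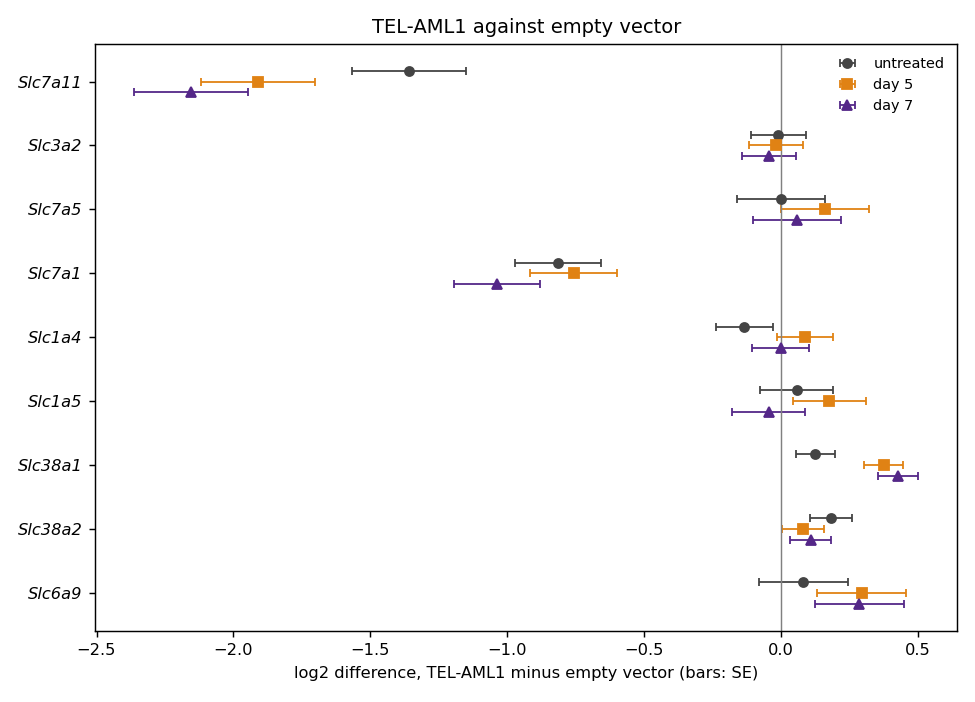
Log2 difference, TEL-AML1 minus empty vector, of the 9 tested members in untreated, day 5 and day 7 cells, with bars for the SE. Slc7a11 (-1.36, -1.91 and -2.15) and Slc7a1 (-0.82, -0.76 and -1.04) lie left of 0 and Slc38a1 (0.13, 0.38 and 0.43) lies right of it.

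The heavy chain gene of the cystine exchanger, Slc3a2, was not called between the vectors. Slc3a2 read 2949 and 2934 in untreated TEL-AML1 cells, against 2940 and 2978 in untreated empty vector cells. On day 5 Slc3a2 read 2425 and 2581 in TEL-AML1 cells, against 2403 and 2669 in empty vector cells. On day 7 it read 2476 and 2559 in TEL-AML1 cells, against 2335 and 2882 in empty vector cells. The 2 TEL-AML1 arrays lay within the range of the empty vector arrays on both treated days, and the log2 differences were -0.01, -0.02 and -0.04, each with an SE of 0.10. Slc3a2 also had no called response to culture, with differences from -0.23 to -0.19 in the 4 comparisons.

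Culture with IL7 and FLT3L was accompanied by lower levels of Slc7a5, Slc1a4, Slc6a9 and Slc7a1 on day 7 in both kinds of cell. Of the 8 tested members other than Slc7a11, 7 had a day 7 difference below 0 in TEL-AML1 cells and 7 in empty vector cells, and Slc38a2 was the exception in both. Of these 8, 2 were called in TEL-AML1 cells on day 5 and 4 on day 7, and in empty vector cells 4 on day 5 and 5 on day 7, all of them lower. Over all genes 1.6% were called in TEL-AML1 cells on day 5 (0.429% lower, 1.17% higher) and 7.81% on day 7 (3.07% lower, 4.74% higher). For empty vector cells 15.5% were called on each day, with 7.15% lower and 8.37% higher on day 5 and 9.18% lower and 6.29% higher on day 7. Fewer cells with a transcript and less of it per cell cannot be told apart in these bulk samples.

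Slc7a5 encodes LAT1, which brings leucine and other large neutral amino acids into the cell. Slc7a5 read 2879 and 2617 in untreated TEL-AML1 cells, 1742 and 1925 on day 5 and 1677 and 1580 on day 7. The empty vector arrays of Slc7a5 read 2821 and 2663 untreated, 1565 and 1706 on day 5 and 1257 and 1937 on day 7. All treated arrays were below all untreated arrays.

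In TEL-AML1 cells Slc7a5 differed by -0.58 ± 0.16 on day 5, which was not called (limma adjusted p = 0.14), and fell by 0.75 ± 0.16 on day 7 (limma adjusted p = 0.0215). In empty vector cells it fell by 0.74 ± 0.16 on day 5 (limma adjusted p = 0.0159) and by 0.81 ± 0.16 on day 7 (limma adjusted p = 0.011). The TEL-AML1 day 7 call ended without the first or second untreated TEL-AML1 array (limma adjusted p = 0.149 and 0.104) and without the first or second TEL-AML1 day 7 array (0.0908 and 0.0998). The empty vector calls ended without the first or second untreated empty vector array (limma adjusted p = 0.0937 and 0.0982 on day 5, 0.0756 and 0.0704 on day 7), and on day 5 also without the first day 5 array (0.0631) and with the stroma level as a covariate (0.0829).

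Slc1a4, which encodes the alanine, serine, cysteine and threonine exchanger ASCT1, had the smallest adjusted p of the members in each of the 4 responses. Slc1a4 read 254 and 235 in untreated TEL-AML1 cells, 127 and 145 on day 5 and 103 and 107 on day 7. In the empty vector groups Slc1a4 read 285 and 255 untreated, 131 and 123 on day 5 and 94.7 and 117 on day 7. Every treated array was below every untreated array, and the vectors overlapped on both treated days.

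It fell in TEL-AML1 cells by 0.78 ± 0.10 on day 5 (limma adjusted p = 0.00318) and by 1.11 ± 0.10 on day 7 (limma adjusted p = 0.000161). Slc1a4 fell in empty vector cells by 1.00 ± 0.10 on day 5 (limma adjusted p = 0.00043) and by 1.24 ± 0.10 on day 7 (limma adjusted p = 9.41e-05). Leaving out any 1 array ended 1 of these 4 calls, TEL-AML1 day 5 without the first untreated TEL-AML1 array (limma adjusted p = 0.0564). The TEL-AML1 day 5 call also ended without both first day 5 arrays (limma adjusted p = 0.0658), and with the stroma level as a covariate Slc1a4 remained called in all 4 responses.

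Slc6a9, the glycine carrier gene, read 771 and 695 in untreated TEL-AML1 cells, 432 and 365 on day 5 and 429 and 319 on day 7. Empty vector cells gave Slc6a9 values of 727 and 656 untreated, 279 and 368 on day 5 and 276 and 327 on day 7. Treated arrays were below untreated arrays throughout.

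Slc6a9 fell in TEL-AML1 cells by 0.86 ± 0.16 on day 5 (limma adjusted p = 0.0292) and by 0.95 ± 0.16 on day 7 (limma adjusted p = 0.00738). In empty vector cells it fell by 1.07 ± 0.16 on day 5 (limma adjusted p = 0.00396) and by 1.16 ± 0.16 on day 7 (limma adjusted p = 0.00251). The TEL-AML1 day 5 call ended without the first or second untreated TEL-AML1 array (limma adjusted p = 0.251 and 0.144), the first or second TEL-AML1 day 5 array (0.0769 and 0.0898) or either untreated empty vector array (0.0568), and the day 7 call without the first untreated TEL-AML1 array (0.0787). With the stroma level as a covariate both day 5 calls ended (limma adjusted p = 0.154 in TEL-AML1 cells and 0.0773 in empty vector cells).

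Slc7a1 fell on day 7 in TEL-AML1 cells by 0.75 ± 0.16 (limma adjusted p = 0.0194) and in empty vector cells by 0.53 ± 0.16 (limma adjusted p = 0.0479), and was not called on day 5 (-0.45 ± 0.16 in TEL-AML1 cells, limma adjusted p = 0.23, and -0.50 ± 0.16 in empty vector cells, 0.056). The TEL-AML1 day 7 call ended without the first or second untreated TEL-AML1 array (limma adjusted p = 0.128 and 0.117) or the second TEL-AML1 day 7 array (0.114). The empty vector day 7 call ended without any 1 of 11 of the 12 arrays, at limma adjusted p between 0.0503 and 0.27, and held without the second empty vector day 7 array (0.00395).

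Slc38a1 fell in empty vector cells by 0.39 ± 0.07 on day 5 (limma adjusted p = 0.00893) and by 0.37 ± 0.07 on day 7 (limma adjusted p = 0.0107), whereas in TEL-AML1 cells the differences of -0.15 ± 0.07 and -0.07 ± 0.07 were not called (limma adjusted p = 0.391 and 0.702). The difference between these responses was 0.25 ± 0.10 on day 5 (limma adjusted p = 0.626) and 0.30 ± 0.10 on day 7 (limma adjusted p = 0.434), so a difference in response was not shown. The second, dimmer probe set read lower in treated cells of both vectors. Its means untreated, on day 5 and on day 7 were 312, 192 and 233 in TEL-AML1 cells. In empty vector cells they were 223, 149 and 147. With the mean of all probe sets, the TEL-AML1 day 5 difference was -0.40 and was called (limma adjusted p = 0.035). The empty vector calls ended without the first or second untreated empty vector array (limma adjusted p = 0.0655 and 0.0762 on day 5, 0.0756 and 0.0751 on day 7). The day 7 call also ended without the first empty vector day 7 array (limma adjusted p = 0.0524), and the day 5 call with the stroma level as a covariate (0.234).

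Slc1a5 and Slc38a2, which encode the glutamine exchanger ASCT2 and the amino acid regulated carrier SNAT2, were not called in any comparison as fitted. Slc1a5 read 1032 and 965 in untreated TEL-AML1 cells, 787 and 853 on day 5 and 677 and 746 on day 7. The empty vector values of Slc1a5 were 1004 and 913 untreated, 714 and 731 on day 5 and 620 and 868 on day 7. All treated Slc1a5 arrays were below all untreated ones, with differences of -0.48 ± 0.13 in TEL-AML1 cells on day 7 (limma adjusted p = 0.0555) and of -0.40 ± 0.13 and -0.38 ± 0.13 in empty vector cells on days 5 and 7 (limma adjusted p = 0.07 and 0.0827). With same-numbered arrays of a condition blocked as pairs, these 3 passed (limma adjusted p = 0.0124, 0.0148 and 0.0174). With array weights only the TEL-AML1 day 7 and empty vector day 5 differences passed (limma adjusted p = 0.0068 and 0.0437). With the stroma level as a covariate only the day 7 differences passed, in TEL-AML1 and empty vector cells (limma adjusted p = 0.0227 and 0.0353).

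Slc38a2 read 2380 and 2401 in untreated TEL-AML1 cells, 2349 and 2420 on day 5 and 2766 and 2495 on day 7. Its empty vector values were 2117 and 2090 untreated, 2175 and 2332 on day 5 and 2489 and 2380 on day 7. At each condition the TEL-AML1 arrays of Slc38a2 were above the empty vector arrays. The vector differences were 0.18 ± 0.08 untreated, 0.08 ± 0.08 on day 5 and 0.11 ± 0.08 on day 7. None was called as fitted (limma adjusted p = 0.211, 0.601 and 0.435), and with array weights the untreated one was (0.0278). Both day 7 arrays were above both untreated arrays in each vector, with differences of 0.13 ± 0.08 in TEL-AML1 cells (limma adjusted p = 0.346) and 0.21 ± 0.08 in empty vector cells (limma adjusted p = 0.0887). The empty vector day 7 difference passed with the replicate block (limma adjusted p = 0.0425).

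**Figure D4:**
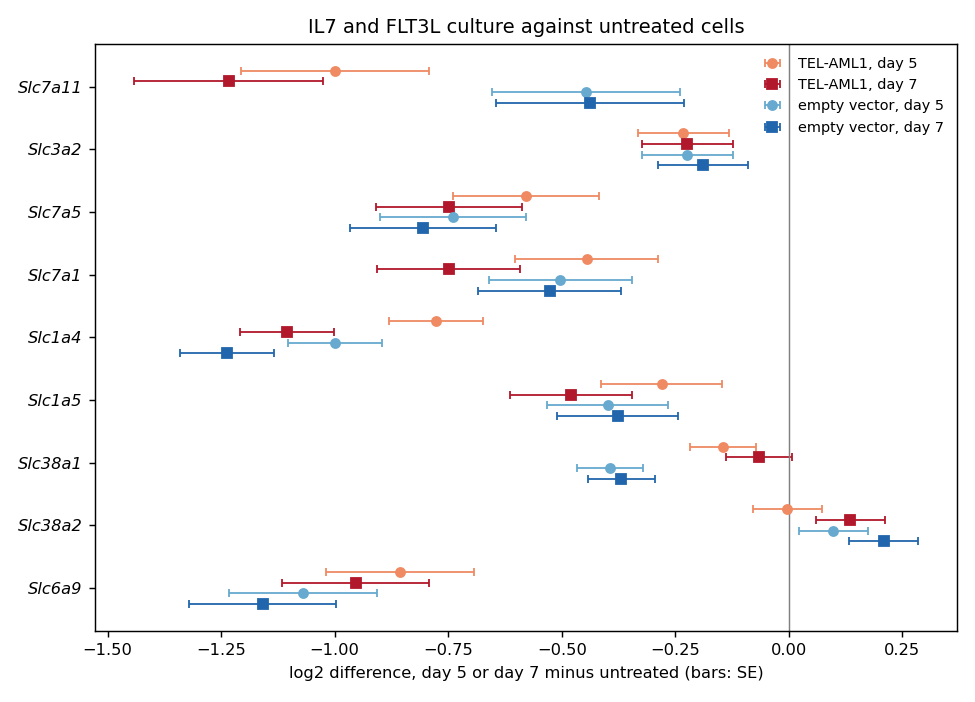
Log2 difference of treated minus untreated cells for the 9 tested members, by vector and day, with bars for the SE. Slc1a4 lies between -1.24 and -0.78 and Slc6a9 between -1.16 and -0.86, while Slc38a2 lies between -0.00 and 0.21.

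None of the 8 members other than Slc7a11 was called between day 7 and day 5 in either vector, nor were any of the 12345 genes by limma (0 called, 0%), although 990 genes in TEL-AML1 cells and 791 in empty vector cells had an unadjusted p under 0.05. The response to culture of the 8 members other than Slc7a11 was not called as different between the vectors either, at limma adjusted p of 0.434 or more. Over all genes 0.0324% were called for that difference on day 5 and 0.081% on day 7.

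Most listed genes that ATF4 is known to induce when amino acids are short fell on day 7 in both vectors. Slc7a5, Slc1a4, Slc6a9 and Slc7a1 did so too, whereas Slc3a2, Slc1a5 and Slc38a2 were called in neither and Slc38a1 only in empty vector cells. Of the 30 ATF4 list genes tested, members left out, 6 fell in TEL-AML1 cells on day 5 and 17 on day 7, and 0 rose. Of the same genes in empty vector cells, 20 fell and 1 rose on day 5, and 22 fell and 1 rose on day 7. Over all genes 0.429% and 3.07% fell in TEL-AML1 cells on days 5 and 7, and 7.15% and 9.18% in empty vector cells. The shares that rose were 1.17% and 4.74% in TEL-AML1 cells, and 8.37% and 6.29% in empty vector cells. Their median differences were -0.33 and -0.49 in TEL-AML1 cells and -0.52 and -0.57 in empty vector cells, against medians within 0.01 of 0 over all genes. Leaving out 1 array at a time, the number that fell ranged from 2 to 11 and from 7 to 20 in TEL-AML1 cells and from 8 to 20 and from 13 to 22 in empty vector cells. With the stroma level as a covariate it was 3 and 22 in TEL-AML1 cells and 10 and 22 in empty vector cells.

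Chac1, whose product breaks down glutathione, read 402 and 392 in untreated TEL-AML1 cells, 112 and 116 on day 5 and 97.7 and 99.2 on day 7. In the empty vector groups Chac1 read 286 and 327 untreated, 95.0 and 119 on day 5 and 70.6 and 86.9 on day 7. Treated arrays were far below untreated ones, and Chac1 fell on day 7 by 1.85 ± 0.11 in TEL-AML1 cells (limma adjusted p = 6.86e-06) and by 1.77 ± 0.11 in empty vector cells (limma adjusted p = 1.45e-05). Mthfd2, an enzyme of mitochondrial one-carbon metabolism, fell on day 7 by 1.32 ± 0.09 in TEL-AML1 cells and by 1.16 ± 0.09 in empty vector cells (limma adjusted p = 2.15e-05 and 7.24e-05). The cysteinyl-tRNA synthetase gene Cars fell on day 7 by 0.94 ± 0.10 in TEL-AML1 cells and by 1.02 ± 0.10 in empty vector cells (limma adjusted p = 0.000285 and 0.000213). Asns, the asparagine synthetase gene, fell in empty vector cells on day 7 by 1.31 ± 0.22 (limma adjusted p = 0.00597) and differed by -0.74 ± 0.22 in TEL-AML1 cells, which was not called (0.0763). The difference of these Asns responses was 0.58 ± 0.32 and was not called (limma adjusted p = 0.633). Of the 30 genes, 0 were called for a difference of responses between the vectors on either day. Cebpg, a partner of ATF4, was the 1 gene that rose, by 1.12 in empty vector cells on day 7 (limma adjusted p = 0.0032).

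Between the vectors, of the same 30 genes 0 were higher and 2 lower in TEL-AML1 cells when untreated, 3 higher and 1 lower on day 5, and 3 higher and 2 lower on day 7. Over all genes 2.72% were higher and 6.16% lower untreated, 3.01% and 4.27% on day 5, and 5.24% and 6.01% on day 7. Leaving out 1 array at a time, the number higher ranged from 0 to 2 untreated, from 0 to 6 on day 5 and from 1 to 9 on day 7, and the number lower from 1 to 2, 0 to 1 and 2 to 3. Sesn2, a leucine sensor gene, was lower in TEL-AML1 cells untreated (-0.45 ± 0.10, limma adjusted p = 0.0194) and on day 7 (-0.56 ± 0.10, limma adjusted p = 0.00585). Psph, an enzyme of serine synthesis whose gene lies on chromosome 5, was lower under all 3 conditions (-0.63, -0.43 and -0.56, limma adjusted p = 0.00184, 0.019 and 0.00351). Stc2, which encodes the secreted protein stanniocalcin 2, was higher on days 5 and 7 (0.82 and 0.83, limma adjusted p = 0.00792 and 0.00559).

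The cysteine and glutathione genes (20 tested) and the NRF2 targets (21 tested, 4 of them in both lists) held more genes that fell than rose in treated cells, other than the NRF2 targets in TEL-AML1 cells on day 5, where none was called either way. Of the cysteine and glutathione genes 1 fell in TEL-AML1 cells on day 5 and 6 on day 7, and 0 rose. In empty vector cells 7 of them fell and 1 rose on day 5, and 8 fell and 1 rose on day 7. Of the NRF2 targets 0 fell and 0 rose in TEL-AML1 cells on day 5, and 4 fell and 1 rose on day 7. Of the same targets in empty vector cells 9 fell and 3 rose on day 5, and 10 fell and 0 rose on day 7. Over all genes, 0.429% fell and 1.17% rose in TEL-AML1 cells on day 5, and 3.07% fell and 4.74% rose on day 7. In empty vector cells 7.15% of all genes fell and 8.37% rose on day 5, and 9.18% fell and 6.29% rose on day 7. At an unadjusted limma p under 0.05, 8 NRF2 targets were lower and 5 higher in TEL-AML1 cells on day 5. Leaving out 1 array at a time, the day 7 number of NRF2 targets that fell ranged from 1 to 8 in TEL-AML1 cells and from 6 to 11 in empty vector cells. For the cysteine and glutathione genes it ranged from 2 to 7 in TEL-AML1 cells and from 4 to 10 in empty vector cells. With the stroma level as a covariate, the number of cysteine and glutathione genes that fell was 1 and 6 in TEL-AML1 cells and 2 and 9 in empty vector cells on days 5 and 7, and that of NRF2 targets 1 and 6 in TEL-AML1 cells and 4 and 10 in empty vector cells. The difference between the vectors in these counts was not tested. Gene by gene, the TEL-AML1 response minus the empty vector response was called for 0 of the 20 and 0 of the 21 on either day by limma. The shares over all genes were 0.0324% on day 5 and 0.081% on day 7. At an unadjusted limma p under 0.05 it was above 0 for 6 NRF2 targets on day 5 and 8 on day 7, and below 0 for 0. For the cysteine and glutathione genes it was above 0 for 3 and below 0 for 1 on each day.

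Gclm, the modifier subunit of the enzyme that starts glutathione synthesis, read 1014 and 1112 in untreated TEL-AML1 cells, 919 and 711 on day 5 and 802 and 630 on day 7. Empty vector arrays of Gclm read 1293 and 1399 untreated, 705 and 563 on day 5 and 655 and 620 on day 7. It fell on day 7 by 0.57 ± 0.15 in TEL-AML1 cells (limma adjusted p = 0.0468) and by 1.06 ± 0.15 in empty vector cells (limma adjusted p = 0.00271). The catalytic subunit gene Gclc fell in empty vector cells on day 7 by 0.90 ± 0.12 (limma adjusted p = 0.0018) and differed by -0.37 ± 0.12 in TEL-AML1 cells (not called, 0.0857). Txnrd1, thioredoxin reductase, fell on day 7 by 0.47 in TEL-AML1 cells (limma adjusted p = 0.0396) and by 1.06 in empty vector cells (limma adjusted p = 0.000755). Hmox1, haem oxygenase, fell on day 7 by 1.14 in TEL-AML1 cells (limma adjusted p = 0.0241) and by 1.73 in empty vector cells (limma adjusted p = 0.00299). For none of these genes was the response called as different between the vectors.

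Between the vectors, 1 of the cysteine and glutathione genes was higher in TEL-AML1 cells when untreated, 1 on day 5 and 2 on day 7, and 1 was lower on day 7. The shares over all genes were 2.72% higher and 6.16% lower untreated, 3.01% and 4.27% on day 5, and 5.24% and 6.01% on day 7. These few calls are not read as a result about the list. Glul, glutamine synthetase, which makes glutamine from glutamate, was the one higher under all 3 conditions. Glul read 335 and 300 in untreated TEL-AML1 cells, against 82.1 and 68.1 in untreated empty vector cells. On day 5 Glul read 328 and 296 in TEL-AML1 cells, against 161 and 171 in empty vector cells, and on day 7 it read 230 and 317 in TEL-AML1 cells, against 107 and 164 in empty vector cells. The arrays did not overlap at any condition, and the differences were 1.88 ± 0.18, 0.85 ± 0.18 and 0.95 ± 0.18 (limma adjusted p = 0.000168, 0.0181 and 0.0078). Of the NRF2 targets, Nqo1 was higher (0.75 ± 0.14, limma adjusted p = 0.00625) and Srxn1 lower (-0.73 ± 0.10, limma adjusted p = 0.00149) in untreated TEL-AML1 cells. On day 5 none of the NRF2 targets was called between the vectors by limma (0 of 21, with 4 higher and 1 lower at an unadjusted p under 0.05), and on day 7 the glutathione reductase gene Gsr was lower (-0.30, limma adjusted p = 0.0179).

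**Figure D5:**
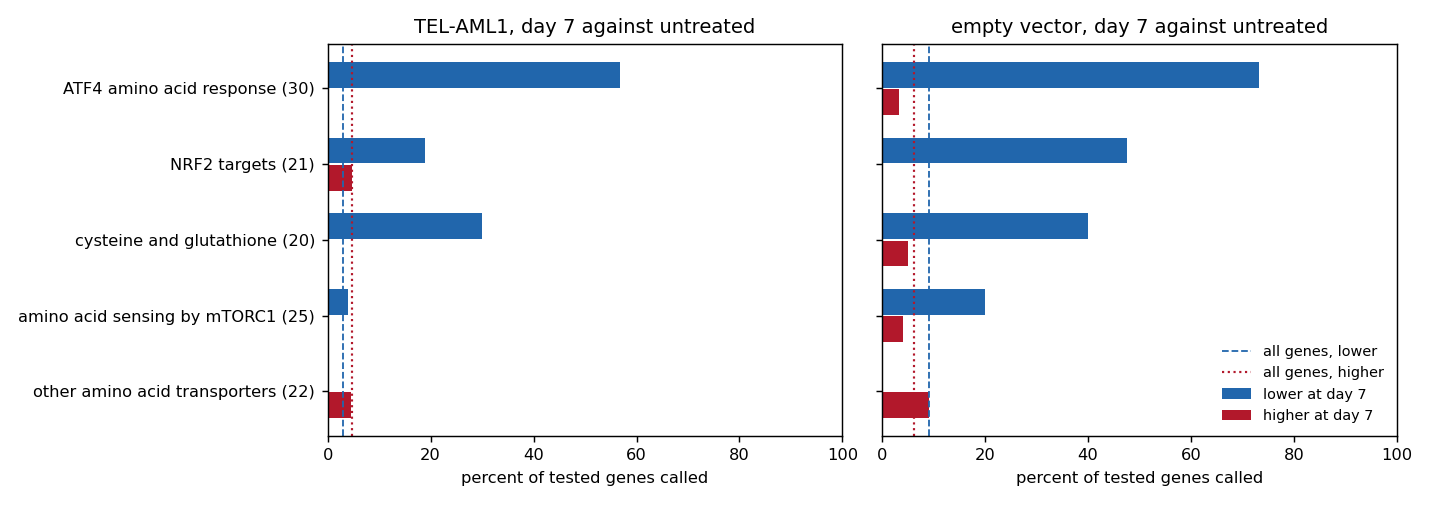
Percent of tested genes of 5 lists (number tested in brackets) called lower (blue) or higher (red) on day 7 than untreated, in TEL-AML1 cells (left) and empty vector cells (right), with lines for all 12345 genes. In the ATF4 list 17 of 30 and 22 of 30 genes fell, against 3.07% and 9.18% of all genes.

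Of 14 tested regulators of transporter transcription, Atf4 itself fell in treated cells. Atf4 read 646 and 691 in untreated TEL-AML1 cells, 478 and 523 on day 5 and 504 and 435 on day 7, and its difference was -0.41 ± 0.09 on day 5 (not called, limma adjusted p = 0.0613) and -0.50 ± 0.09 on day 7 (limma adjusted p = 0.0107). Atf4 in empty vector cells read 604 and 636 untreated, 439 and 465 on day 5 and 435 and 471 on day 7, and fell by 0.44 ± 0.09 on both days (limma adjusted p = 0.0135 and 0.0127). Nfe2l2, which encodes NRF2, fell in empty vector cells on day 7 (-0.48 ± 0.14, limma adjusted p = 0.04) and was not called elsewhere. ATF4 and NRF2 are controlled largely after transcription, so these values are of their transcripts only.

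Between the vectors Atf4 differed by 0.11, 0.14 and 0.05 and Nfe2l2 by -0.08, 0.01 and -0.04 in untreated, day 5 and day 7 cells, and neither was called. Keap1, Bach1, Myc, Max, Hif1a, Bap1, Atf2, Atf3, Eif2ak3 and Eif2ak4 were not called between the vectors within any condition either, with differences from -0.35 (Atf3, day 5) to 0.21 (Bach1, day 7). Of these, Hif1a and Atf2 had lower means in TEL-AML1 cells at each condition, and Bach1, Myc, Max and Eif2ak4 had higher means. Eif2ak1, a kinase that phosphorylates eIF2α when haem is short, was lower in TEL-AML1 cells under all 3 conditions (-0.53, -0.56 and -0.41, limma adjusted p = 0.00282, 0.003 and 0.0107), and it lies on chromosome 5 as Slc7a1 does. Kit is also on chromosome 5, as are Depdc5, Rheb, Lap3 and Ugdh of the other lists, among others. The chromosome 5 genes named here are thus only some of those tested, and their distances from Slc7a1 were not analysed. Kit means in TEL-AML1 and empty vector cells were 2659 and 2676 untreated, 2311 and 2506 on day 5, and 2615 and 2537 on day 7. Whether position matters was not tested.

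Cd44, whose variant forms bind and stabilise xCT in cancer cells, read 205 and 201 in untreated TEL-AML1 cells, 281 and 235 on day 5 and 210.2 and 212 on day 7. In empty vector cells Cd44 read 52.7 and 52.9 untreated, 219 and 191 on day 5 and 62.1 and 145 on day 7. The higher empty vector values were on the arrays with more stromal transcript. Cd44 was higher in TEL-AML1 cells untreated (1.67 ± 0.25, limma adjusted p = 0.00194) and on day 7 (1.02 ± 0.25, limma adjusted p = 0.0252), and was not called on day 5 (0.31 ± 0.25, limma adjusted p = 0.536). The day 7 difference was 0.50 without the first empty vector day 7 array and 1.54 without the second (limma adjusted p = 0.0268 and 0.000128). The day 7 call ended without the first (limma adjusted p = 0.0992) or second (0.116) TEL-AML1 day 7 array and in the compared groups alone (0.19), and with the stroma level as a covariate the difference was 1.21 (0.00163). Its probe set does not tell variant forms apart here.

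Of 44 other amino acid transporter genes, 40 were on the array and 22 of them passed the filter on dim genes. Between the vectors 1 was higher and 2 lower in untreated TEL-AML1 cells, 1 higher and 2 lower on day 5, and 2 higher and 1 lower on day 7. The shares over all genes were 2.72% higher and 6.16% lower untreated, 3.01% and 4.27% on day 5, and 5.24% and 6.01% on day 7. These few calls are not read as a result about the list. None fell in treated cells of either vector by limma (0 of 22 on each day). Of all genes 0.429% and 3.07% fell in TEL-AML1 cells on days 5 and 7, and 7.15% and 9.18% in empty vector cells. At an unadjusted p under 0.05, 0 were lower in TEL-AML1 cells on days 5 and 7, and 1 and 2 in empty vector cells. By the adjusted p, in TEL-AML1 cells 0 rose on day 5 and 1 on day 7, and in empty vector cells 3 and 2. Of all genes 1.17% and 4.74% rose in TEL-AML1 cells, and 8.37% and 6.29% in empty vector cells. Slc16a10, the aromatic amino acid carrier TAT1, read 283 and 283 in untreated TEL-AML1 cells, 317 and 293 on day 5 and 301 and 304 on day 7. The empty vector values of Slc16a10 were 166 and 161 untreated, 149 and 158 on day 5 and 170 and 179 on day 7. Its difference was 0.74 ± 0.07, 0.92 ± 0.07 and 0.74 ± 0.07 (limma adjusted p = 0.000172, 7.82e-05 and 0.000168).

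Slc7a8, which encodes LAT2 and also pairs with CD98, was lower in TEL-AML1 cells on day 5 (-0.59 ± 0.10, limma adjusted p = 0.00597) and day 7 (-0.46 ± 0.10, limma adjusted p = 0.0149). Untreated it read 1537 and 1532 in TEL-AML1 cells, against 1703 and 1725 in empty vector cells (-0.16 ± 0.10, limma adjusted p = 0.49). On day 7 Slc7a8 read 1738 and 1660 in TEL-AML1 cells, against 2448 and 2254 in empty vector cells, and it rose there by 0.45 ± 0.10 against untreated empty vector cells (limma adjusted p = 0.0167).

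Among 25 tested genes of amino acid sensing by mTORC1, Deptor, an inhibitor of mTOR, was higher in TEL-AML1 cells under all 3 conditions (1.15, 0.61 and 0.75, limma adjusted p = 0.000157, 0.00734 and 0.00184). Lamtor4, a lysosomal anchor subunit whose gene lies on chromosome 5, was lower under all 3 (-0.79, -0.66 and -0.83, limma adjusted p = 0.000501, 0.00226 and 0.000373). In all, 1 gene of this list was higher and 2 lower in untreated TEL-AML1 cells, 2 higher and 1 lower on day 5, and 3 higher and 2 lower on day 7. The shares over all genes were 2.72% higher and 6.16% lower untreated, 3.01% and 4.27% on day 5, and 5.24% and 6.01% on day 7. These few calls are not read as a result about the list. In treated TEL-AML1 cells 0 of the 25 fell on day 5 (2 at an unadjusted limma p under 0.05) and 1 on day 7, and in empty vector cells 3 and 5. Of all genes 0.429% and 3.07% fell in TEL-AML1 cells on days 5 and 7, and 7.15% and 9.18% in empty vector cells.

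Across all 12 arrays the genes whose log2 values were most like those of Slc7a11 were Flt1 (Pearson r = 0.971), Mapk11 (0.967), Ube2j1 (0.965), Cd180 (0.965), Zmat3 (0.964), Mapk12 (0.964), Dnajb14 (0.958) and Pkp4 (0.953). The arrays fall apart by vector, so these values largely repeat the vector difference. Genes with clone, Rik, Gm or LOC names were skipped in this ranking, and Flt1 lies on chromosome 5, as Slc7a1 does. Within the 6 TEL-AML1 arrays the same 8 genes gave r between 0.71 and 0.969, and within the 6 empty vector arrays between 0.488 and 0.975. Within the TEL-AML1 arrays, the other tested members gave r with Slc7a11 of 0.928 (Slc3a2), 0.972 (Slc7a5), 0.919 (Slc7a1), 0.975 (Slc1a4), 0.909 (Slc1a5), 0.555 (Slc38a1), -0.50 (Slc38a2) and 0.953 (Slc6a9). Within the empty vector arrays they ran from -0.24 (Slc38a2) to 0.747 (Slc6a9). These are descriptions over 6 arrays that share their culture condition.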

How the data were processed

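RNA of 12 EML1 samples was measured on Affymetrix arrays. The deposited values are linear intensities for 35556 probe sets; the authors' background correction, normalization and summary are not given in the sources used here. Of the probe sets, 21218 had 1 gene symbol in the platform annotation, 1881 had several and 12457 were not listed; 21185 of those with 1 symbol matched RefSeq. One probe set was kept per gene, and genes whose mean log2 intensity was under the 40th percentile (59.9) were left out. log2(intensity + 16) of 12345 genes was fitted to 6 group means with limma 3.58.1 in R 4.3.3 (6 residual and 4.22 prior degrees of freedom), with Benjamini-Hochberg adjustment within each contrast and a threshold of 0.05. The median SE of a difference was 0.099, and the number of arrays limits the precision. The code was tested on simulated data. Members, gene lists and tests were chosen with earlier results of these data known.

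Deviations of same-numbered arrays of the 2 vectors correlated at 0.433 (untreated), 0.542 (day 5) and 0.378 (day 7) over genes, and at -0.21 to 0.138 between conditions. Replicate numbers may therefore mark pairs within a condition, but the reported fit does not use them. A fit with them as a block within each condition is an alternative. Other alternatives were the normalization, filter, pseudocount, probe sets, variance model, array weights, a stroma covariate, the groups fitted and each array left out, and 2 chosen after the stroma levels were seen (without both second day 7 arrays, and without both first day 5 arrays). The named genes are all members and regulators, up to 5 genes per list and contrast with the smallest p, and the 8 most like Slc7a11. For those 8, genes with clone, Rik, Gm or LOC names were skipped.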

Additional observations from a re-analysis of the deposited data

How the results depend on the processing

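Over 26 alternatives, 1638 values of the log2 differences of the 9 tested members were compared with those reported: 1482 kept their direction and their side of the threshold, 78 lost a call, 45 gained one, 29 turned in sign and 4 changed in size. These 4 were vector differences of Slc7a11, at -1.44 untreated and -2.42 on day 7 with a pseudocount of 1 and -1.15 and -1.63 with a pseudocount of 64. The totals of lost and gained calls include responses of Slc7a11, which are descriptions and are not read as tests. Calls between the vectors among the 8 members other than Slc7a11 numbered 2 in untreated cells with the mean of all probe sets and 2 with array weights, 1 on day 5 in the compared groups alone and 1 without both first day 5 arrays, and 0 on day 7 in the compared groups alone. Among the responses of these 8 members, 2 and 4 were called in TEL-AML1 cells on days 5 and 7, and 4 and 5 in empty vector cells, as fitted. The stroma covariate left 1 of them, Slc1a4, called in TEL-AML1 cells on day 5 and in empty vector cells on day 5. The compared groups alone left 2 in empty vector cells on day 7. Leaving out 1 array at a time, calls between the vectors, again without Slc7a11, ranged from 0 to 1 untreated, 0 to 2 on day 5 and 2 to 3 on day 7. For responses, with Slc7a11, they ranged from 0 to 4 and 1 to 6 in TEL-AML1 cells and from 2 to 6 and 2 to 7 in empty vector cells, on days 5 and 7. These response ranges include Slc7a11, whose responses are descriptions, so they are not read as numbers of tested calls. They are also not comparable with the as-fitted numbers for the 8 members. With Slc7a11 counted, the numbers past the threshold as fitted were 3 and 5 in TEL-AML1 cells and 4 and 5 in empty vector cells. With the replicate block, Slc1a5 gained 3 calls (limma adjusted p = 0.0124, 0.0148 and 0.0174) and Slc38a2 gained 1 (0.0425), and no other member's call changed.

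The sign turned only for differences that were not called. Leaving out 1 array at a time, untreated vector differences ranged from -0.0090 to 0.126 for Slc1a5, from -0.018 to 0.00053 for Slc3a2 and from -0.066 to 0.070 for Slc7a5. Day 5 vector differences ranged from -0.093 to 0.058 for Slc3a2. Day 7 vector differences ranged from -0.131 to 0.129 for Slc1a4, from -0.282 to 0.192 for Slc1a5, from -0.194 to 0.108 for Slc3a2 and from -0.249 to 0.369 for Slc7a5. The TEL-AML1 day 5 response of Slc38a2 ranged from -0.025 to 0.0177. With quantile normalization, untreated Slc7a5 gave -0.049, day 7 Slc1a4 0.0065 and the Slc38a2 response 0.022. With median centring, untreated Slc7a5 gave -0.021 and day 7 Slc1a4 0.022. With the stroma covariate, untreated Slc7a5 gave -0.0055, day 5 Slc3a2 0.025, day 7 Slc1a4 0.021, day 7 Slc1a5 0.017 and the Slc38a2 response 0.109. Without both first day 5 arrays, the day 5 difference of Slc6a9 was -0.0087 and the Slc38a2 response 0.0177. Without both second day 7 arrays, day 7 differences were 0.101 for Slc1a4, 0.124 for Slc1a5 and 0.084 for Slc3a2. The cause of these changes was not tested.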
